A study of Homo sapiens with 20 samples.

Results

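The interferon-stimulated genes described here are a fixed list of 50 human genes, found by symbol among the 60232 genes of the expression table, and all 50 were present and tested among 27350 genes. They were measured by RNA sequencing in 5 established gastric cancer cell lines treated for 72 h with decitabine (DCB, 7.5 µM), a cytidine analogue that blocks DNA methyltransferases, or with the solvent DMSO, with 2 libraries per line and treatment and 20 libraries in all. YCCEL1 and SNU719 carry Epstein-Barr virus (EBV+), and AGS, SNU16 and HGC27 do not (EBV-). The study's text also places YCCEL1, SNU719 and AGS among lines with the CpG island methylator phenotype (CIMP+) and SNU16 and HGC27 among CIMP- lines. It names MKN74 in places where the sample labels give HGC27, and the label is used here.

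Interferon-stimulated genes are switched on when type I or type III interferon binds its receptor and the kinases JAK1 and TYK2 activate transcription factors that include STAT2. STAT2 joins IRF9 in a complex that binds a short DNA element, the interferon-stimulated response element (ISRE), while IRF1 and IRF7 can bind the same kind of element. The products block viral entry, translation and genome copying, tag proteins with the ubiquitin-like modifier ISG15, draw in lymphocytes, or feed back on the pathway, and epithelial cells express them at a low level without infection. Inhibitors of DNA methylation are known to raise such genes in some tumour cells.

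The element is visible in the genes' own promoters. Of the 50 members, 40 had a RefSeq promoter window (250 bases before an annotated start, GRCh38.p14), and 27 of these 40 (67.5%) held the core GAAANNGAAA on either strand, against 3.71% of 27305 genes with a window. The gamma-activated element TTCNNNGAA was matched in 12 members (30%), against 8.09% of all genes, and 5 windows held a match of one overlapping a match of the other. A match is only a run of letters and was not shown to be bound here. The 7 stretches below belong to members that the results turn on, cut with 20 bases on each side of the matches and read 5′ to 3′ on the gene's strand, with the bases of each ISRE match (GAAANNGAAA, or TTTCNNTTTC for a match on the opposite strand) in capitals. The IFI6 stretch is chr1:27672256-27672368 on the minus strand and holds 3 separate matches. IFI27 is shown for chr14:94110608-94110670 on the plus strand, ISG15 for chr1:1013364-1013419 on the plus strand and IFIT1 for chr10:89392487-89392549 on the plus strand. HERC5 is shown for chr4:88456974-88457074 on the plus strand, BST2 for chr19:17405725-17405780 on the minus strand and PLSCR1 for chr3:146544657-146544706 on the minus strand.
IFI6: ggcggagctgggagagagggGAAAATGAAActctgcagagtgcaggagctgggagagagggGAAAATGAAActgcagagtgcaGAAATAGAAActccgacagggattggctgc
IFI27: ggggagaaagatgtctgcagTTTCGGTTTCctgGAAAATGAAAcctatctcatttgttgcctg
ISG15: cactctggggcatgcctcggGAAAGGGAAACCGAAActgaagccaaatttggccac
IFIT1: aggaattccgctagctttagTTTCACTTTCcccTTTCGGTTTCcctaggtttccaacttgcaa
HERC5: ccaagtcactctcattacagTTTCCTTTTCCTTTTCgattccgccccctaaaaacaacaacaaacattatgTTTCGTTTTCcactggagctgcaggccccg
BST2: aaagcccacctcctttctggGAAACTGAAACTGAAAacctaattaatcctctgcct
PLSCR1: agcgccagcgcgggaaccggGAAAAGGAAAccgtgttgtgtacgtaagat
In IFI27 and IFIT1 a pair of matches lie close together, whereas those of ISG15 and BST2 overlap each other, and PLSCR1 holds a single match.

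The values are the authors' normalised counts, in which 1 read was worth between 0.754 and 1.21, so a value of a few units rests on a few reads. Library totals were 7764408 to 9321014 normalised counts, and the log2 values of the 2 libraries of a group correlated across genes at r = 0.969 to 0.98. Levels were compared between samples only, since the values are not divided by gene length. EPCAM and KRT18, markers of epithelium, stood at 4458 or more in every library of YCCEL1, SNU719, AGS and SNU16. CDH1, another such marker, was low in AGS, at 122 and 139 with DCB and 67.8 and 104 with DMSO. It was 2621.7 or more in every library of YCCEL1, SNU719 and SNU16. In HGC27 EPCAM was 22.4 to 38.5, and KRT18 was 148 and 139.9 with DCB against 19.7 and 24.8 with DMSO. Of 5 epithelial markers, 4 rose with DCB in HGC27 (KRT18, KRT8, KRT19 and CDH1), where 14.7% of all genes tested rose. The part of these markers in the changes of the members in that line was not tested. PTPRC, which marks blood cells, was at most 8.77 in any library. The sources do not say if both libraries of a group were grown as independent cultures. For single lines and contrasts between lines, the spread behind each p-value is that of libraries, which may be technical. In the fit over the 5 lines, that spread also holds differences in response between lines, and the units are still libraries, not lines.

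DCB raised a part of the interferon-stimulated genes in every line and lowered a few in 4 lines, with the shares of all genes given beside each count. Tests were made by limma on log2(value + 1) with Benjamini-Hochberg adjustment over all genes tested, and a member is called at an adjusted p below 0.05. In YCCEL1, 18 members rose and 6 fell, where 14.6% of all genes tested rose and 6.93% fell. In SNU719, 13 rose and 3 fell (13.5% and 7.64% of all genes). AGS had 10 that rose and 5 that fell (18.5% and 9.13%), so that its share of risen members was close to that of all genes. SNU16 had 12 that rose and none that fell (4.5% and 2.34%), and HGC27 had 18 that rose and 2 that fell (14.7% and 9.03%). The share of members that fell was near or below that of all genes in SNU719, AGS, SNU16 and HGC27. As a ratio to its own background, the share of risen members was largest in SNU16, although 5 to 9 members rose there when single SNU16 libraries were left out and only 1 when the line was fitted alone. With HGC27 fitted alone 10 rose and none fell, and with YCCEL1 fitted alone 3 fell in place of 6. Shares of all genes were not taken for fits of a line alone or with a library left out. Member counts from those fits therefore cannot be set against the shares above. Among members that fell, the count was 2 to 4 in YCCEL1 and 0 to 2 in HGC27 when single libraries were left out.

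With the study's added limit of a log2 fold change above 2, 6 members rose in YCCEL1 (7.99% of all genes), 6 in SNU719 (6.38%), 4 in AGS (9.02%), 6 in SNU16 (2.31%) and 3 in HGC27 (4.95%). The median log2 fold change of the 50 members was 0.72 in YCCEL1, 0.38 in SNU719, 0.15 in AGS, 0.46 in SNU16 and 0.61 in HGC27. Over all genes tested these medians were 0.09, 0.11, 0.12, 0.01 and 0.04 in the same order of lines. All fold changes here are on the log2(value + 1) scale, which understates changes of genes with low values.

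**Figure D1:**
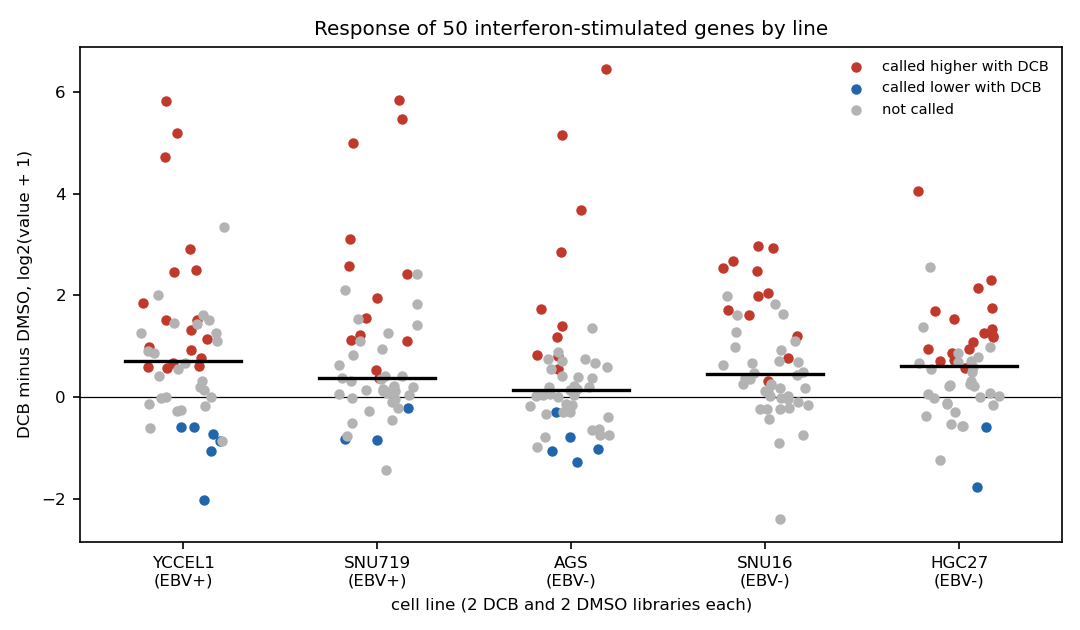
Difference between DCB and DMSO in log2(value + 1) for each of the 50 genes in each line (n = 2 DCB and 2 DMSO libraries per line). Red points were called higher and blue points lower by limma, grey points were not called, and black bars are the medians, which run between 0.15 in AGS and 0.72 in YCCEL1.

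No member was called higher in all 5 lines. Of the 50, 6 rose in 4 lines, 7 in 3, 6 in 2, 14 in 1 and 17 in none. The 13 that rose in 3 or more lines were BST2, CXCL11, HERC5, IFI27, IFI35, IFI6, IFIT1, IFITM2, IRF7, ISG15, ISG20, MX2 and SAMD9. Members could also go in opposite directions, since 7 (BST2, IFITM3, LGALS3BP, LY6E, OAS1, OAS3 and PLSCR1) rose in at least 1 line and fell in at least 1 other. A further 12 were called in no line: CMPK2, DDX60L, EPSTI1, GBP1, IFIT3, IFIT5, IFITM1, OAS2, PARP9, RSAD2, SP100 and XAF1. Calls across lines were counted for the members only. These counts therefore have no share of all genes beside them, and whether they differ from it was not tested.

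**Figure D2:**
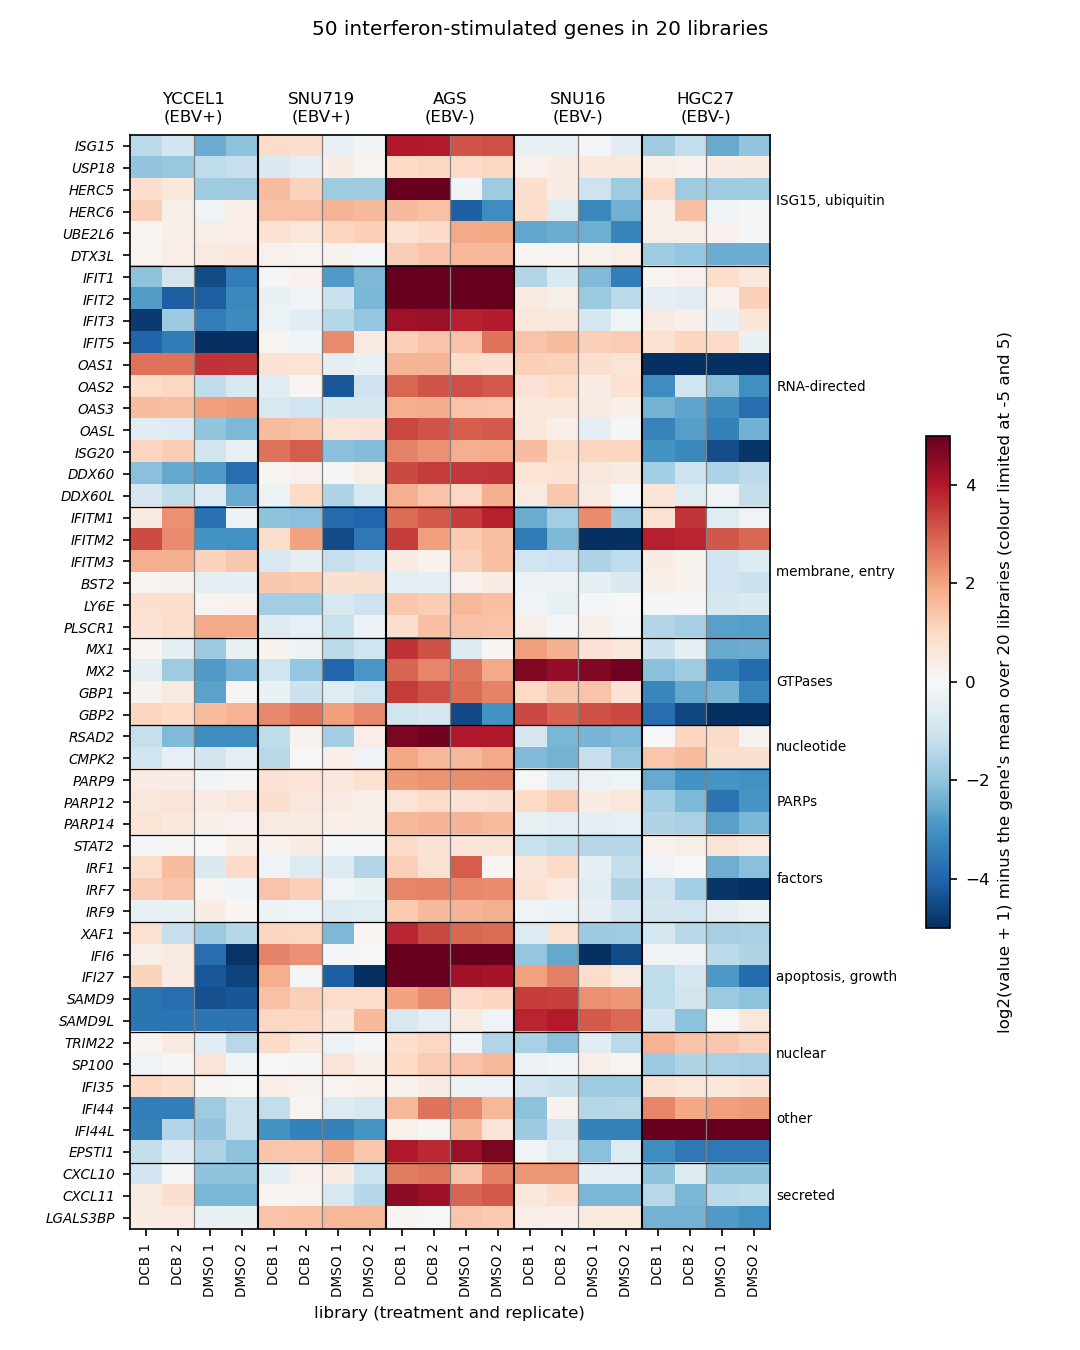
Each row is 1 of the 50 genes, grouped by role, and each column 1 of the 20 libraries, with DCB left of DMSO within a line. Colour gives log2(value + 1) minus the gene's mean over the 20 libraries. AGS libraries are red for most genes with either treatment, and IFI6, IFI27 and IFITM2 are redder with DCB than with DMSO in YCCEL1 and SNU719.

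IFI6 and IFI27 had some of the widest responses in the EBV+ lines. They encode small membrane proteins of 1 family linked to cell death and, for IFI6, to flavivirus replication. IFI6 was 114 and 126 with DCB against 5.63 and 2.11 with DMSO in YCCEL1, a log2 fold change of 4.73 ± 0.31 (± SE throughout, adjusted p = 1.0e-07). It was 525 and 459 with DCB against 87.8 and 93.2 with DMSO in SNU719 (2.43 ± 0.31, adjusted p = 6.3e-05). The same gene was 23.7 and 14.7 with DCB against 1.72 and 3.16 with DMSO in SNU16 (2.55 ± 0.31, adjusted p = 1.4e-04), and 80.5 and 81.7 with DCB against 37 and 32.1 with DMSO in HGC27 (1.21 ± 0.31, adjusted p = 0.0104). The SNU16 call was lost with that line fitted alone (adjusted p = 0.114). DCB and DMSO libraries did not overlap in these 4 lines. AGS was apart, at 3469.9 and 3307 with DCB and 3119.6 and 3045 with DMSO, the highest levels of the series in both states and not called (0.14 ± 0.31, adjusted p = 0.829).

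IFI27 was nearly silent in both EBV+ lines under DMSO. It was 123 and 74.8 with DCB against 2.02 and 1.31 with DMSO in YCCEL1 (5.20 ± 0.60, adjusted p = 2.6e-05). It was 204 and 55 with DCB against 2.43 and 0 with DMSO in SNU719 (5.85 ± 0.60, adjusted p = 9.0e-06), where the DCB libraries differed from each other by 3.71-fold. HGC27 had 23.1 and 31.6 with DCB against 6.95 and 3.03 with DMSO (2.31 ± 0.60, adjusted p = 0.0118). The groups did not overlap in SNU16 (236 and 331 with DCB, 108 and 77 with DMSO) or in AGS (1903 and 1933 with DCB, 1063 and 1008 with DMSO), but neither line passed the test (adjusted p = 0.145 in SNU16 and 0.324 in AGS).

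SAMD9, a growth-restraining factor that blocks poxviruses, moved less but more evenly. It was 562 and 553 with DCB against 251 and 231 with DMSO in SNU16 (1.21 ± 0.20, adjusted p = 0.00225) and 209.6 and 266 with DCB against 100.4 and 108 with DMSO in AGS (1.18 ± 0.20, adjusted p = 6.1e-04). It was 20.7 and 26.8 with DCB against 13.2 and 11.6 with DMSO in HGC27 (adjusted p = 0.00594), and in YCCEL1 it stood at 3.17 and 2.73 with DCB and 1.48 and 1.67 with DMSO (adjusted p = 0.045). SNU719, at 141 and 117 with DCB and 96.5 and 97.3 with DMSO, was not called. Its neighbour on chromosome 7, SAMD9L, was listed at 0 in all 4 YCCEL1 libraries and fell in HGC27, at 5.69 and 2.05 with DCB against 11.4 and 17.8 with DMSO (-1.76 ± 0.44, adjusted p = 0.009). That call was lost when DMSO replicate 2 or DCB replicate 2 of HGC27 was left out (adjusted p = 0.0789 and 0.105) and with HGC27 fitted alone (0.113). SAMD9L was not called in SNU16, at 174 and 194 with DCB and 103 and 88.9 with DMSO. XAF1, which counters inhibitors of apoptosis, was not called in any line although it was in the fit over all 5.

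The ISG15 system comprises the modifier itself, the E2 enzyme UBE2L6, the E3 ligase HERC5 (HERC6 is its relative) and the deconjugase USP18. ISG15 was 66 and 90.3 with DCB against 29.5 and 40.2 with DMSO in YCCEL1 (adjusted p = 0.00331) and 322 and 304 with DCB against 132 and 153 with DMSO in SNU719 (1.13 ± 0.24, adjusted p = 0.00356). AGS had 2766 and 2692 with DCB against 1526 and 1594 with DMSO (0.81 ± 0.24, adjusted p = 0.0215), and HGC27 had 48.5 and 72.1 with DCB against 28.9 and 42.8 with DMSO (adjusted p = 0.0389). In these 4 lines the groups did not overlap. SNU16 libraries overlapped, at 130.2 and 130.4 with DCB and 158 and 115 with DMSO.

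HERC5 was at or near 0 in all 10 DMSO libraries, at most 2.1, and its largest level was in AGS treated with DCB. It stood at 151 and 154 with DCB against 2.1 and 0 with DMSO in AGS (adjusted p = 1.3e-05). In the EBV+ lines it was 5.19 and 3.94 with DCB in YCCEL1 (adjusted p = 0.0238) and 9.12 and 6.42 with DCB in SNU719 (adjusted p = 0.00611), and listed at 0 in both DMSO libraries of each, so that no fold is given. SNU16 had 4.97 and 3.45 with DCB against 0.682 and 0 with DMSO, and HGC27 5.78 and 0 with DCB against 0 with DMSO, neither called. HERC6, next to HERC5 on chromosome 4, rose in AGS, at 51.5 and 46.3 with DCB against 0 and 0.967 with DMSO (adjusted p = 8.5e-06), and in SNU16, at 30.1 and 10.2 with DCB against 0.82 and 2.26 with DMSO (2.94 ± 0.55, adjusted p = 0.00468). In the other 3 lines it was already expressed without DCB, at 54.5 and 52.1 in SNU719 DMSO libraries for example, and was not called.

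USP18, which removes ISG15 and restrains receptor signalling, fell in both EBV+ lines. It was 23.2 and 24.8 with DCB against 38.8 and 41.7 with DMSO in YCCEL1 (-0.72 ± 0.15, adjusted p = 0.00375) and 55.7 and 68.6 with DCB against 121 and 102 with DMSO in SNU719 (-0.83 ± 0.15, adjusted p = 0.0014), and both calls were lost with each line fitted alone (adjusted p = 0.118 in YCCEL1 and 0.0598 in SNU719). It was 187 and 193 with DCB against 183 and 194 with DMSO in AGS, 108 and 123 with DCB against 136 and 134 with DMSO in SNU16 and 116 and 110.4 with DCB against 123 and 124 with DMSO in HGC27, none called. UBE2L6 fell in AGS only among single-line calls, at 292 and 328 with DCB against 634 and 659.8 with DMSO (-1.06 ± 0.21, adjusted p = 0.00164). DTX3L, a ubiquitin E3 ligase that partners PARP9, rose in HGC27 (0.63 ± 0.13, adjusted p = 0.00203) and was not called elsewhere.

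Among 11 members directed at RNA, which bind, cut or unwind it, 4 rose and 2 fell in YCCEL1 (14.6% and 6.93% of all genes). In the other lines 3 rose in SNU719 (13.5%), 1 in AGS (18.5%), 2 in SNU16 (4.5%) and 2 in HGC27 (14.7%). Whether so small a group differs from all genes was not tested. ISG20, an exonuclease, had the smallest adjusted p of the members that rose in SNU719, at 187 and 236 with DCB against 5.8 and 5.41 with DMSO (5.00 ± 0.29, adjusted p = 4.8e-08). It was 60.6 and 69.5 with DCB against 14.3 and 20.5 with DMSO in YCCEL1 (1.86 ± 0.29, adjusted p = 3.6e-04). In HGC27 it was called at very low values, 2.61 and 2.11 with DCB against 0.344 and 0 with DMSO, and it was not called in AGS (162 and 139 with DCB, 100.5 and 103 with DMSO) or SNU16 (82.7 and 51.5 with DCB, 59.7 and 60.7 with DMSO).

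The OAS enzymes make oligoadenylate that activates RNase L, and OAS1, OAS3 and OAS2 lie side by side on chromosome 12. OAS1 fell in YCCEL1, where its level was highest, at 2332 and 2346 with DCB against 4319 and 4192 with DMSO (-0.86 ± 0.23, adjusted p = 0.0163). It rose in SNU719, at 587 and 566 with DCB against 255 and 281 with DMSO (1.10 ± 0.23, adjusted p = 0.00353), and in AGS, at 1136 and 1165 with DCB against 672 and 631 with DMSO (0.82 ± 0.23, adjusted p = 0.0171). The DCB and DMSO libraries did not overlap in any of these 3 lines. OAS1 was not called in SNU16 (810.1 and 789 with DCB, 611 and 566 with DMSO) and was near the floor in HGC27 (8.1 and 3.25 with DCB, 9 and 7.49 with DMSO).

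OAS3 followed OAS1 down in YCCEL1, at 1568 and 1512 with DCB against 2314 and 2343 with DMSO (-0.60 ± 0.15, adjusted p = 0.0129), a call lost when any of 3 of the 4 YCCEL1 libraries was left out (adjusted p = 0.0588 to 0.0725). It rose in HGC27, at 104 and 84.8 with DCB against 60.1 and 38.7 with DMSO (0.95 ± 0.15, adjusted p = 4.4e-04). It was 307 and 269.8 with DCB against 289.7 and 303 with DMSO in SNU719, 1896 and 1933 with DCB against 1430.4 and 1423 with DMSO in AGS and 782 and 770.5 with DCB against 725 and 645 with DMSO in SNU16, none called. OAS2 was called in no line. OASL, a relative without the synthetase activity, rose in YCCEL1, at 38.8 and 36.6 with DCB against 13.8 and 11.3 with DMSO (1.52 ± 0.30, adjusted p = 0.00217).

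The IFIT proteins bind foreign RNA and stall translation, and their genes form a cluster on chromosome 10. IFIT1 was 4.5 and 10.7 with DCB against 0 and 1.01 with DMSO in YCCEL1 (adjusted p = 0.00188) and 19.6 and 24.6 with DCB against 2.16 and 3.64 with DMSO in SNU719 (2.58 ± 0.48, adjusted p = 0.00148), and 7.04 and 12.1 with DCB against 3.87 and 1.01 with DMSO in SNU16 (adjusted p = 0.0491). In these 3 lines IFIT1 thus stayed at or below 24.6 even with DCB. AGS stood at 1213 and 1273 with DCB and 815 and 826 with DMSO without passing the test, and HGC27 at 23 and 25 with DCB and 39.9 and 30.9 with DMSO. IFIT2 rose in SNU16 alone among single-line calls, at 23.7 and 20.7 with DCB against 3.92 and 5.87 with DMSO (adjusted p = 0.0303). IFIT3 and IFIT5 were not called. The helicase DDX60 rose in YCCEL1 (adjusted p = 0.0307), at 14.9 and 10.3 with DCB and 8.36 and 3.96 with DMSO, and its relative DDX60L in no single line.

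Of 6 members at membranes, 4 rose and 1 fell in YCCEL1 (14.6% and 6.93% of all genes), and 4 rose in HGC27 (14.7%). In SNU719 2 rose and 1 fell (13.5% and 7.64%), and in SNU16 2 rose (4.5%). In AGS 3 fell (9.13% of all genes) and none rose (18.5%). Whether so small a group differs from all genes was not tested. BST2 (tetherin), which holds budding virus at the cell surface, fell in AGS and rose in the other 4 lines with little spread. It was 603 and 561 with DCB against 251 and 234 with DMSO in HGC27 (1.26 ± 0.09, adjusted p = 1.3e-07), 524 and 548 with DCB against 355 and 356 with DMSO in YCCEL1 (adjusted p = 2.3e-04), 1235 and 1224 with DCB against 852 and 847 with DMSO in SNU719 (adjusted p = 5.4e-04) and 399 and 409.7 with DCB against 347 and 299 with DMSO in SNU16 (adjusted p = 0.0391). In AGS it fell, at 357 and 353 with DCB against 576 and 644 with DMSO (-0.78 ± 0.09, adjusted p = 1.5e-05). The groups did not overlap in any of the 5 lines.

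PLSCR1, a scramblase that also limits viral entry, and LY6E, a lipid-anchored surface protein with the same kind of role, went up in some lines and down in others. PLSCR1 fell in YCCEL1, at 478 and 549 with DCB against 1058 and 1077 with DMSO (-1.06 ± 0.25, adjusted p = 0.00693), a call lost without DCB replicate 1 (adjusted p = 0.0565). It rose in HGC27, at 104 and 91.3 with DCB against 42.9 and 42.2 with DMSO (1.18 ± 0.25, adjusted p = 0.00306). It was 186 and 214 with DCB against 133 and 233 with DMSO in SNU719, 504 and 814 with DCB against 791 and 769.7 with DMSO in AGS and 349.8 and 279.7 with DCB against 345 and 271 with DMSO in SNU16, with overlapping groups in SNU719, AGS and SNU16 and no call. LY6E rose in YCCEL1, at 1519 and 1502 with DCB against 943 and 964 with DMSO (adjusted p = 1.4e-04), and in HGC27, at 819 and 808 with DCB against 474 and 522 with DMSO (0.71 ± 0.09, adjusted p = 6.3e-05). It fell in SNU719, at 256 and 254 with DCB against 491 and 416 with DMSO (-0.82 ± 0.09, adjusted p = 2.0e-05). Its fall in AGS was small, at 2216 and 2039.5 with DCB against 2719 and 2462 with DMSO (adjusted p = 0.0343), and in SNU16 it was not called (771 and 661 with DCB, 833 and 853 with DMSO).

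The IFITM proteins stiffen membranes against viral fusion, and their 3 genes are near-identical neighbours on chromosome 11, so reads may have been split among them and their values are uncertain. IFITM2 was 390.5 and 211 with DCB against 4.17 and 4 with DMSO in YCCEL1 (5.83 ± 0.52, adjusted p = 2.4e-06), and 75.8 and 167 with DCB against 0.884 and 2.48 with DMSO in SNU719 (5.47 ± 0.52, adjusted p = 4.7e-06). In SNU16 it was 2.55 and 7.71 with DCB and listed at 0 in both DMSO libraries (adjusted p = 0.0108), while AGS (449 and 176 with DCB, 101 and 116 with DMSO) and HGC27 (609 and 586 with DCB, 359 and 300.4 with DMSO) were not called. IFITM3 fell in AGS, at 1918 and 1632 with DCB against 3191 and 4042 with DMSO (-1.02 ± 0.15, adjusted p = 1.5e-04). It rose in HGC27, at 1875 and 1624 with DCB against 738 and 903 with DMSO (1.09 ± 0.15, adjusted p = 9.9e-05), and in YCCEL1, at 5069 and 4967 with DCB against 3154 and 3611 with DMSO (adjusted p = 0.0138). It was not called in SNU719 (817 and 1042 with DCB, 654 and 739.9 with DMSO) or SNU16 (717 and 692 with DCB, 496 and 591 with DMSO). IFITM1 was called nowhere, and its replicates differed by up to 18.4-fold (SNU16 DMSO libraries, 758 and 41.1).

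Both Mx proteins and both guanylate-binding proteins on the list are GTPases that act on viral ribonucleoprotein or on vacuoles. MX1 rose most in AGS, at 417 and 308 with DCB against 20.7 and 35.4 with DMSO (3.68 ± 0.43, adjusted p = 2.0e-05), and also in HGC27, at 15 and 24 with DCB against 4.84 and 5.08 with DMSO (1.75 ± 0.43, adjusted p = 0.00849). It was 142 and 114 with DCB against 54.4 and 49.8 with DMSO in SNU16, 36.9 and 27.6 with DCB against 12.7 and 16.1 with DMSO in SNU719 and 35.2 and 23.9 with DCB against 8.62 and 25.4 with DMSO in YCCEL1, with overlap in YCCEL1 only and no call in these 3 lines. MX2 rose in YCCEL1, SNU719 and HGC27 (adjusted p = 0.0389, 0.0101 and 0.0208) at values of at most 22.2, while it stood at 773 and 656 with DCB and 774 and 909.7 with DMSO in SNU16. GBP2 rose in AGS, at 14.8 and 16.8 with DCB against 0.374 and 2.96 with DMSO (2.85 ± 0.40, adjusted p = 1.1e-04). It was 65 and 62.6 with DCB against 92.5 and 104 with DMSO in YCCEL1, 163 and 203 with DCB against 131 and 163 with DMSO in SNU719, 312 and 245 with DCB against 285 and 307 with DMSO in SNU16 and 1.24 and 0.326 with DCB against 0 and 0 with DMSO in HGC27, none called, and GBP1 was called in no line.

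**Figure D3:**
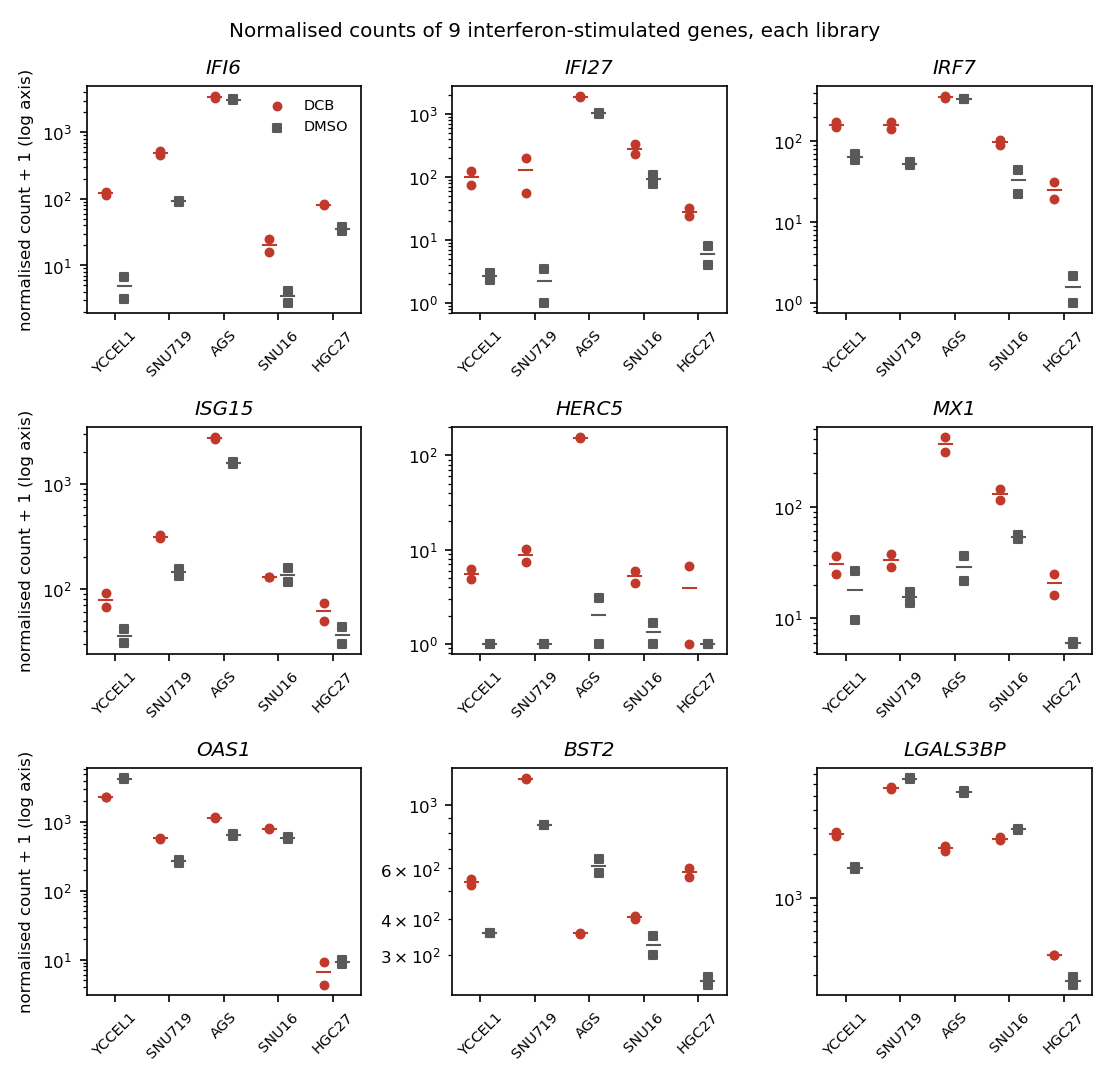
Normalised count + 1 (log axis) of 9 interferon-stimulated genes in each library, DCB (red circles) left of DMSO (grey squares) in each line, with short bars for the mean of 2 libraries. IFI6 and IFI27 separate widely in YCCEL1 and SNU719 but stay above 1000 in AGS with either treatment, whereas BST2 and LGALS3BP fall in AGS and OAS1 falls in YCCEL1.

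Of the transcription factors, IRF7, which drives the later wave of interferon genes, rose in 4 lines. It was 30 and 18.5 with DCB against 1.19 and 0 with DMSO in HGC27 (4.06 ± 0.36, adjusted p = 1.7e-06) and 104 and 88.2 with DCB against 42.8 and 21.6 with DMSO in SNU16 (1.62 ± 0.36, adjusted p = 0.015). It was 170.1 and 143 with DCB against 54.3 and 49.7 with DMSO in SNU719 (1.57 ± 0.36, adjusted p = 0.00646) and 149 and 171 with DCB against 69.7 and 57 with DMSO in YCCEL1 (1.33 ± 0.36, adjusted p = 0.0174). The groups did not overlap in these 4 lines, while AGS had 342 and 359 with DCB and 337 and 331 with DMSO (adjusted p = 0.972), the highest levels of the 5 lines in both states. IRF9, the DNA-binding partner of STAT2, fell in YCCEL1, at 148 and 152 with DCB against 249 and 205 with DMSO (-0.59 ± 0.17, adjusted p = 0.0209). It fell in HGC27 too, at 103 and 97 with DCB against 139 and 163 with DMSO (adjusted p = 0.0194), a call lost when DMSO replicate 2 or either DCB library of HGC27 was left out (adjusted p = 0.0563 to 0.131) and with the line fitted alone (0.0858). It was 161 and 164 with DCB against 124 and 125 with DMSO in SNU719, 168 and 162 with DCB against 142 and 99.8 with DMSO in SNU16 and 473 and 596 with DCB against 634 and 667 with DMSO in AGS, none called.

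STAT2 changed little, with a called rise in SNU719 only (618 and 688 with DCB against 498 and 509 with DMSO, 0.37 ± 0.12, adjusted p = 0.0388). It was 504 and 561 with DCB against 535 and 673 with DMSO in YCCEL1, 1055 and 893 with DCB against 833 and 848 with DMSO in AGS, 249.9 and 221 with DCB against 199 and 198 with DMSO in SNU16 and 627 and 650.2 with DCB against 833 and 737 with DMSO in HGC27. IRF1 rose in HGC27, at 131 and 152 with DCB against 27.4 and 35.1 with DMSO (2.15 ± 0.72, adjusted p = 0.045). It was 238 and 298 with DCB against 109 and 66 with DMSO in SNU16, 283 and 464 with DCB against 93.2 and 303 with DMSO in YCCEL1, 138 and 95.2 with DCB against 97.9 and 55.6 with DMSO in SNU719 and 351 and 258 with DCB against 1263 and 169 with DMSO in AGS, none called. The AGS DMSO libraries differed from each other by 7.48-fold in IRF1.

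The secreted members were the chemokines CXCL10 and CXCL11, which attract T cells through CXCR3, and LGALS3BP, a galectin-binding glycoprotein. CXCL11 was 6 and 7.73 with DCB in SNU16 (adjusted p = 2.3e-04) and 5.78 and 7.48 with DCB in YCCEL1 (adjusted p = 7.5e-05), and listed at 0 in both DMSO libraries of each. The SNU16 call was lost with that line fitted alone (adjusted p = 0.0728). In AGS it was 112 and 93.7 with DCB against 36.3 and 40.5 with DMSO (1.40 ± 0.38, adjusted p = 0.0135). It was 4.19 and 4.44 with DCB against 1.85 and 0.839 with DMSO in SNU719 (adjusted p = 0.0353), and in HGC27 at most 1.05. CXCL10 rose in SNU16, at 17.8 and 17.7 with DCB against 1.9 and 1.98 with DMSO (2.67 ± 0.57, adjusted p = 0.0115). It was 23.5 and 25 with DCB against 9.81 and 22.4 with DMSO in AGS, 1.92 and 3.77 with DCB against 4.24 and 0.962 with DMSO in SNU719, 1.1 and 2.86 with DCB against 0 and 0 with DMSO in YCCEL1 and 0 and 1.55 with DCB against 0 and 0 with DMSO in HGC27, none called. Apart from AGS, chemokine values in treated cells thus stayed at or below 17.8.

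LGALS3BP had the smallest standard error of the 50 members. It fell in AGS, at 2257 and 2107 with DCB against 5429.9 and 5192 with DMSO (-1.28 ± 0.06, adjusted p = 3.9e-09). It rose in YCCEL1, at 2674 and 2816 with DCB against 1579.6 and 1636 with DMSO (0.77 ± 0.06, adjusted p = 7.0e-07), and in HGC27, at 405 and 406 with DCB against 289.5 and 253 with DMSO (0.58 ± 0.06, adjusted p = 8.4e-06). The groups did not overlap in these 3 lines. The fall in SNU719 was small, at 5578 and 5755 with DCB against 6536 and 6577 with DMSO (-0.21 ± 0.06, adjusted p = 0.0241), and no longer passed when any one SNU719 library was left out (adjusted p = 0.0604 to 0.136). SNU16 was not called, at 2622 and 2476 with DCB and 2961 and 2921 with DMSO.

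The remaining members moved in few lines. PARP12 and PARP14, ADP-ribosyltransferases, rose in HGC27 (PARP12 84.9 and 57.2 with DCB against 20.8 and 34.6 with DMSO, adjusted p = 4.1e-04), and PARP14 there was 96.9 and 89.4 with DCB against 41 and 55.7 with DMSO (adjusted p = 7.4e-05). IFI35 rose in YCCEL1, at 259.6 and 236 with DCB against 129.9 and 128 with DMSO (0.93 ± 0.13, adjusted p = 1.6e-04). It rose in SNU16 as well, at 65.4 and 59 with DCB against 36 and 36.1 with DMSO (0.77 ± 0.13, adjusted p = 0.00252, but 0.147 with SNU16 fitted alone), and in AGS, at 148 and 162 with DCB against 106 and 103 with DMSO (adjusted p = 0.00569). It was 160.0 and 147 with DCB against 137 and 146 with DMSO in SNU719 and 212 and 187 with DCB against 187 and 207 with DMSO in HGC27, neither called. TRIM22, a TRIM-family restriction factor, rose in AGS at 46.9 and 55.4 with DCB against 23.8 and 8.85 with DMSO (adjusted p = 0.00836). IFI44L was unusual in its level, at 1151 and 979 with DCB and 1384 and 1344 with DMSO in HGC27 but at most 31.1 in every other library, and was called higher in SNU16 (1.97 and 4.82 with DCB, 0 in both DMSO libraries). IFI44, its neighbour on chromosome 1, was listed at 0 in both DCB libraries of YCCEL1, against 2.21 and 4.19 with DMSO (adjusted p = 0.0382). RSAD2 (viperin) and CMPK2, adjacent genes whose products act on nucleotides, were not called in any line.

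Over the 5 lines together, with line as a covariate, 20 members rose and 2 fell, where 17.9% of all genes tested rose and 6.94% fell. The median log2 fold change was 0.51 for the members and 0.15 for all genes. The smallest adjusted p belonged to SAMD9 (log2 fold change 0.86 ± 0.13, adjusted p = 1.4e-04), then IFI27 (3.17 ± 0.52, adjusted p = 2.9e-04), IFITM2 (3.20 ± 0.53, adjusted p = 3.0e-04) and HERC5 (3.08 ± 0.51, adjusted p = 3.0e-04). The HERC5 and IFITM2 estimates depend on the added 1, since some DMSO groups were at 0. Only these last 3 and IFI6 (2.21 ± 0.38, adjusted p = 4.3e-04) also passed a log2 fold change of 2, 4 members where 3.4% of all genes did. XAF1 and DDX60L, called in no single line, were among the 20 (adjusted p = 0.00738 and 0.0484). The 2 that fell were USP18 (-0.38 ± 0.12, adjusted p = 0.0216) and SP100 (-0.31 ± 0.11, adjusted p = 0.04), a nuclear body protein. Only 1 member fell in 13 of the 20 fits that left out 1 library each, and likewise without the filter on low values or without the eBayes trend.

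The study asks whether EBV+ cells respond in their own way, so the mean response of YCCEL1 and SNU719 was set against that of AGS, SNU16 and HGC27. The response was higher in EBV+ lines for 8 members (10.5% of all genes tested) and lower for 7 (9.17%), and the median difference was 0.07 on the log2 scale for the members and 0.04 for all genes tested. The 8 were IFITM2 (4.08 ± 0.48, adjusted p = 3.6e-05), IFI27 (3.93 ± 0.55, adjusted p = 1.7e-04), ISG20 (2.69 ± 0.26, adjusted p = 7.0e-06), IFI6 (2.28 ± 0.28, adjusted p = 5.7e-05), IFIT1, OASL, LGALS3BP (0.58 ± 0.06, adjusted p = 5.4e-06) and BST2. The 7 were HERC6 (-2.79 ± 0.50, adjusted p = 0.00122), GBP2, MX1, OAS3 (-0.84 ± 0.14, adjusted p = 7.6e-04), PLSCR1, USP18 (-0.66 ± 0.14, adjusted p = 0.00414) and SAMD9. The EBV+ response was not one pattern, since OAS1 fell in YCCEL1 and rose in SNU719 while LY6E did the reverse, and LGALS3BP rose in YCCEL1 and fell in SNU719. With AGS left out of the EBV- lines, LGALS3BP no longer passed the test (0.09, adjusted p = 0.333), and leaving out single libraries gave 3 to 6 members with a lower response in place of 7. Without AGS, only the 4 members with the smallest adjusted p were checked, and ISG20, IFITM2 and IFI6 kept their calls. BST2 was not checked in this way. Its response was -0.78 in AGS, 0.33 in SNU16 and 1.26 in HGC27, against 0.59 in YCCEL1 and 0.53 in SNU719. EBV status here is that of 2 lines against 3, and it cannot be told apart from other differences between those lines.

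Each line's response was also tested against the mean of the other 4. HGC27 differed for 20 members, 10 higher and 10 lower (11.1% and 12.5% of all genes), with IRF7 the furthest above (2.91 ± 0.40, adjusted p = 1.3e-04) and IFITM2 the furthest below (-2.92 ± 0.58, adjusted p = 0.00229). AGS differed for 14, of which 4 were higher and 10 lower (9.41% and 6.31%). The 4 were HERC6 (4.05 ± 0.61, adjusted p = 4.6e-04), HERC5, GBP2 and MX1, each at most 35.4 in the AGS DMSO libraries, and the 10 included BST2 (-1.45 ± 0.10, adjusted p = 3.7e-07), LGALS3BP, IFITM3, IFI6 (-2.59 ± 0.34, adjusted p = 1.6e-04) and IRF7. YCCEL1 was higher for 8 and lower for 4 (7.52% and 5.54%), the 4 being OAS1 (-1.31 ± 0.26, adjusted p = 0.00392), OAS3, PLSCR1 and GBP2. SNU719 was higher for 5 and lower for 3 (6.2% and 6.1%), led by ISG20 (3.98 ± 0.32, adjusted p = 2.4e-06). SNU16 was higher for 3 and lower for 3 (2.79% and 5.47%), with ISG15 (adjusted p = 0.0347), ISG20 and TRIM22 the 3 lower. Leaving out single libraries gave 5 to 8 lower for HGC27, 5 to 6 higher for YCCEL1, 3 to 5 higher and 1 to 3 lower for SNU719, and 0 to 2 higher and 1 to 4 lower for SNU16.

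The lines already differed before treatment. DMSO levels differed among the 5 lines for 49 of 50 members, against 67.7% of all genes, with HERC5 the exception. AGS stood out, with the highest DMSO mean for 34 members. Its 2 DMSO libraries were above every other DMSO library for 30 of 50 members, where 8.28% of all genes showed this. They were even above every DCB library of the other 4 lines for 26 members (8.08% of all genes), among them IFI6, IFI27, IFIT1, IFIT2, IFIT3, ISG15, OAS2, RSAD2, STAT2 and USP18. With DCB the AGS libraries were likewise above those of all other lines for 30 members (10.5% of all genes). At the other end, HGC27 DMSO libraries were below every other DMSO library for 17 members (11.2% of all genes).

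**Figure D4:**
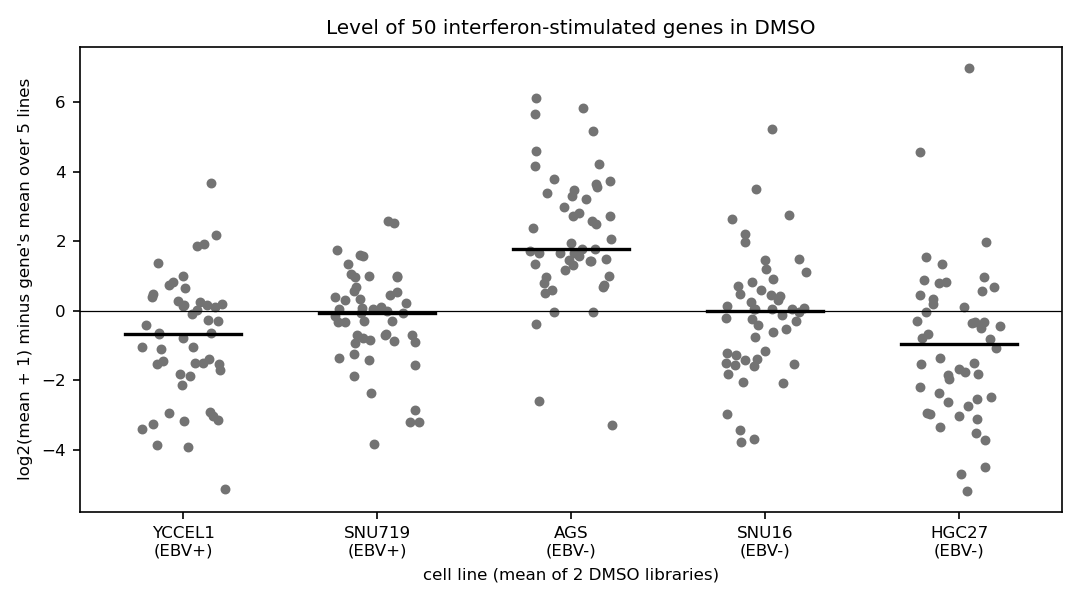
Level of each of the 50 genes in DMSO, as log2 of the mean of 2 libraries plus 1, minus the gene's mean over the 5 lines, with black bars for the medians. The median is 1.79 in AGS, where 45 of 50 genes lie above their own mean, and -0.94 in HGC27.

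RSAD2 shows the size of these differences. It was 138 and 139.6 in the AGS DMSO libraries, 16 and 8.76 in those of HGC27, 1.66 and 9.87 in SNU719 and below 1 in YCCEL1 and SNU16. The other 16 members had their highest DMSO mean elsewhere: OAS1, OAS3 and PLSCR1 in YCCEL1, HERC6, BST2 and LGALS3BP in SNU719, GBP2, MX1, MX2, SAMD9 and SAMD9L in SNU16, and IFI35, IFI44, IFI44L, IFITM2 and TRIM22 in HGC27. DMSO levels in EBV+ lines were higher than in EBV- lines for 15 members (21.1% of all genes) and lower for 26 (25.6%), with a median difference of -0.66 on the log2 scale. With AGS left out of the EBV- lines, 15 members were lower in place of 26 and 21 were higher in place of 15. The shares of all genes were not taken without AGS, so whether all genes turned likewise was not tested.

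The rest of the pathway was set beside the members from lists of other genes. Of 22 interferon genes listed, only 5 (IFNB1, IFNE, IFNL1, IFNL2 and IFNL3) reached the minimum for testing, and only IFNE in SNU719 was called, at 15.4 and 12.1 with DCB against 2.12 and 1.92 with DMSO (adjusted p = 0.00145). Expression of the type III interferon IFNL1 was seen in AGS, at 60.6 and 44.3 with DCB and 32.1 and 28 with DMSO, and was at most 1.1 in every other library. Other interferon genes were seen in AGS too. IFNE was 25.2 and 22.1 with DCB and 35.7 and 40.3 with DMSO, and was also found in YCCEL1 and SNU719. IFNL2 was 15.1 and 22.1 with DCB and 15.2 and 7.83 with DMSO, while IFNL3 was at most 12.6 and IFNB1 at most 4.81. AGS thus had both the highest levels of most members and the only more than trace levels of IFNL1 and IFNL2 in either state. Whether one bears on the other was not tested.

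In a list of 11 receptor and kinase pathway genes, the single call over the 5 lines was a rise of IFNGR1, a chain of the interferon gamma receptor (0.5, adjusted p = 0.0037). Of all genes tested, 17.9% rose and 6.94% fell in that fit. Over the 5 lines 1 of 6 other IRF genes rose (IRF3, 0.26, adjusted p = 0.0223), and 1 of 9 negative regulators did (SOCS1, 1.08, adjusted p = 0.00537). SOCS1, which blocks JAK kinases, was 36.8 and 23.2 with DCB against 7.43 and 3.06 with DMSO in YCCEL1 (adjusted p = 0.00038). Of 16 listed sensors of nucleic acid, 13 were tested, and over the 5 lines STING1 rose (1.44, adjusted p = 0.0116) and TLR3 fell (-0.85, adjusted p = 0.0096). Some blood cell markers also rose with DCB in these cell cultures. Of 16 listed, 11 were tested and 6 rose over the 5 lines, where 17.9% of all genes tested rose. The sum over the list was 98.1 to 1000 in DCB libraries and 37.1 to 318 in DMSO libraries. In HGC27 that sum was lower with DCB (227 and 254) than with DMSO (318 and 276). CD68 reached 672.5 and ITGAM 229, both in SNU719 with DCB. NCAM1 reached 284 in HGC27 with DMSO, where it was lower with DCB (147 and 185). Without CD68, NCAM1 and ITGAM the sum was 18.2 to 74.9 in DCB libraries, against 4.19 to 19.8 in DMSO libraries, with PTPRC at most 8.77. Their part in the members' changes was not tested.

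Response and promoter sequence can be set side by side. Over the 5 lines, 12 of the 27 members with an ISRE match in their window rose and none fell, 4 of the 13 without a match rose and 1 fell, and 4 of the 10 members with no window rose and 1 fell. Of all genes tested 17.9% rose in this fit. In YCCEL1, 11 of 27 with a match and 2 of 13 without rose (14.6% of all genes), and in HGC27 13 of 27 and 2 of 13 (14.7%). In SNU719 7 of 27 with a match and 3 of 13 without rose (13.5% of all genes), in SNU16 6 of 27 and 3 of 13 (4.5%), and in AGS 4 of 27 and 4 of 13 (18.5%). Of the 10 members with no window, 5 rose in YCCEL1, 3 in SNU719, 2 in AGS, 3 in SNU16 and 3 in HGC27. With a match, 3 of 27 fell in YCCEL1 (6.93% of all genes), 1 in SNU719 (7.64%) and 3 in AGS (9.13%). Without a match, 2 of 13 fell in YCCEL1, 1 in AGS and 2 in HGC27 (9.03%). With no window, 1 of 10 fell in YCCEL1, 2 in SNU719 and 1 in AGS. The difference between members with and without a match was not tested. Promoter windows of the members held a median of 6 CpG dinucleotides, against 11 over all windows. Across the 40 members with a window, the Spearman correlation of CpG number with the response was between -0.24 in SNU16 and 0.31 in HGC27, which is a description over genes that are not independent.

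The IFI27 and IFI6 stretches printed above, with 2 and 3 matches, belong to genes that rose widely in both EBV+ lines. PLSCR1, with 1 match, fell in YCCEL1 and rose in HGC27, and BST2 with its overlapping matches fell in AGS and rose in the other 4 lines, so members with a match moved in both directions. IFIT5, with 2 matches, was called in no line, and ISG20, with 1 match, rose in SNU719 (5.00 ± 0.29). Whether the number of matches bears on the response was not tested.

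Some values are less certain than their tests show. Among 285 pairs of replicate values, each of 1 member in 1 group with a mean of at least 50, the replicates differed by more than 2-fold in 16, in the members IFITM1, IFITM2, IRF1, IFIT5, IFI27, DDX60L and IFI44. A listed neighbour with a mean value over 1 overlaps 20 members, and for 16 of them it is protein-coding, for example TMPRSS2 at MX1, LIPA at IFIT1, IFIT2 and IFIT3, CMPK2 at RSAD2 and TRIM5 at TRIM22. The sources name different library kits and do not settle whether counting used strand, so reads of such pairs may not be told apart.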

How the data were processed

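RNA of 20 libraries (5 lines, DCB or DMSO, 2 libraries each) was sequenced. The deposited values are normalised estimated counts per gene, treated as a signal since they are not whole, which the authors made with STAR, featureCounts and DESeq2 (versions 2.5.2b, 1.5.1 and 1.14.1 per the labels). The labels name a poly(A) kit and GRCh37, whereas the study's text names a 3′ kit and GRCh38 with the EBV genome, and the gene coordinates match GRCh38. A 3′ kit and a poly(A) kit spread reads differently over a gene, so levels were not compared between genes.

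Genes with values summing to over 10 across the libraries were tested with limma 3.58.1 (R 4.3.3; lmFit, eBayes with trend) on log2(value + 1) with Benjamini-Hochberg adjustment over all of them. One fit of 10 groups served the single lines and the contrasts between lines, and a fit with line as covariate served the 5 lines together. The steps were tested on simulated data. Motifs were searched on both strands in Python 3.11.15. The members and all lists were chosen with earlier results of these data known. Genes named with values were, per line, the 4 higher and the 3 lower members with the smallest adjusted p, the first 4 over all lines and in the EBV comparison, and a set by role; others were named after their values were seen. Alternatives were other pseudocounts, filters, scalings and variance settings, single-line fits, a replicate block, and leaving out each library.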

Additional observations from a re-analysis of the deposited data

Results flagged for a closer look

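The response to DCB differed between EBV+ and EBV- lines by limma's interaction contrast for 15 of the 50 members. On the log2 scale the EBV+ minus EBV- difference was 4.08 for IFITM2, 3.93 for IFI27, 2.69 for ISG20, 2.28 for IFI6, 1.95 for IFIT1, 0.96 for OASL, 0.58 for LGALS3BP and 0.29 for BST2. It was -0.58 for SAMD9, -0.66 for USP18, -0.75 for PLSCR1, -0.84 for OAS3, -1.22 for MX1, -1.33 for GBP2 and -2.79 for HERC6. Tested for each line against the mean of the other 4, the response differed for 12 members in YCCEL1, 8 in SNU719, 14 in AGS, 6 in SNU16 and 20 in HGC27.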

How the results depend on the processing

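Changes of sign were looked for only in the members with the smallest adjusted p of each comparison, and none was found. Counts of members were compared by size only. The balance of higher and lower members in DMSO levels did turn with AGS left out, as given above, but without a share of all genes beside it. Single-gene calls were likewise checked only for those members with the smallest adjusted p, and 613 results under alternatives kept their call while 22 lost it. Other calls given above were not checked in this way, for example IRF1 in HGC27 (limma adjusted p = 0.045) and IFIT1 in SNU16 (0.0491). Of the counts of members, 397 stayed within 1.5 times and 78 did not. Shares of all genes were not taken for the alternative fits. Requiring a log2 fold change above 2 left 6 higher and 1 lower in YCCEL1, 6 and 0 in SNU719, 4 and 0 in AGS, 6 higher in SNU16, 3 and 0 in HGC27, and 4 and 0 over the 5 lines. In the EBV+ minus EBV- response it left 4 higher and 1 lower, and in DMSO levels 3 and 15. Against the other 4 lines it left 3 and 0 in YCCEL1, 3 and 1 in SNU719, 4 lower in AGS, 1 and 1 in SNU16, and 1 and 4 in HGC27.

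Fitting each line alone gave 3 lower in YCCEL1, 1 higher in SNU16, and 10 higher and 0 lower in HGC27. A filter of a sum over 200 gave 1 lower in SNU16 and 5 higher for SNU16 against the other lines, and a pseudocount of 5 gave 5 lower there. Without a filter, and without the eBayes trend, 1 member was lower over the 5 lines, and LGALS3BP in SNU719 lost its call without the trend (adjusted p = 0.207). With AGS left out, chosen after seeing the data, 15 members were lower in EBV+ DMSO libraries.

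Same-numbered libraries did not deviate together (correlations -0.0386 to 0.0253), so no pairing by number was seen. Such a correlation cannot settle whether they shared a culture or a day. With a replicate block, 0 members were lower over the 5 lines, 1 lower for SNU719, 1 higher for SNU16 and 6 lower for HGC27 against the other lines.

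When each library was left out in turn, the lone library being assumed to vary like the other groups, 2 to 4 members were lower in YCCEL1, 5 to 9 higher in SNU16, 0 to 2 lower in HGC27, 1 to 2 lower over the 5 lines, and 3 to 6 had a lower response in EBV+ lines. Against the other 4 lines, 5 to 6 were higher for YCCEL1, 3 to 5 higher and 1 to 3 lower for SNU719, 0 to 2 higher and 1 to 4 lower for SNU16, and 5 to 8 lower for HGC27. Rescaling shifted the median of all genes most in the response of SNU16 against the other 4 lines, by -0.00677 on the log2 scale. The causes of these shifts were not tested. With 1 read worth 0.754 to 1.21 units, differences of a few units rest on a few reads.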
